A study of Homo sapiens with 6 samples.

Results

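The 37 genes described here encode proteins that make ribosomes in the nucleolus, from RNA polymerase I subunits to late assembly factors. They were taken by name from a list of well-known ribosome biogenesis genes that are also classic targets of the transcription factor MYC, and not by their values. All 37 were present among the 20683 genes counted, and all 37 were among the 11216 genes with enough counts to test. The cells were HT-1080, a long-cultured line from a human fibrosarcoma, and they were kept for 24 h with SLV-8472-01, an inhibitor of the kinase IRAK4, or with solvent. The inhibitor group had 3 libraries. Its labels state 5 mM, and no other source allowed that unit to be verified. The DMSO group had 3 libraries from cells that received 0.1% DMSO. All dishes carried the same line in the same medium with serum, and the series describes the 3 libraries of a group as biological replicates without saying how the cultures were separated, so p-values measure the spread between these libraries.

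Ribosome production begins when RNA polymerase I transcribes the long ribosomal RNA precursor in the nucleolus. Small nucleolar ribonucleoproteins (snoRNPs) then modify and help cut that RNA. Box C/D particles methylate it and box H/ACA particles convert uridines to pseudouridine, while large sets of assembly factors build the small and the large subunit around it. MYC is known to bind and activate many of these genes, often through the E-box CACGTG near their start, and growing tumour cells depend on their output. The comparison asked whether these genes followed the MYC transcript, which was lower with the inhibitor.

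The E-box is shown first because it is the sequence through which MYC is known to act on such genes. RefSeq promoter sequences (GRCh38.p14, from 250 bases before to 50 bases after a gene's start) were matched by symbol for 31 of the 37 genes, some with more than 1 start. No match was made for BOP1, DDX18, NOLC1, NOP58, RRP12 and RRP1B. CACGTG reads the same on both strands, and 14 of the 31 genes (45.2%) held it in at least 1 window. Among 131 other ribosome biogenesis genes the share was 26.7%, and it was 13% among 8801 tested genes with a sequence. It was 8.77% among all 27305 genes with a RefSeq promoter. The 37 genes were chosen as classic MYC targets, so these shares are not independent of that choice. In the 14 genes the motif began between 64 bases before and 35 bases after the start. The stretches below come from 7 of these genes, printed 5′ to 3′ on the gene's own strand with the E-box in capitals.
FBL (chr19:39846358-39846383, minus strand): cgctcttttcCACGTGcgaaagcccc
LYAR (chr4:4290070-4290095, minus strand): gcggcgagtcCACGTGctccccgcgg
UTP20 (chr12:101280085-101280110, plus strand): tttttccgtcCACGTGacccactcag
BYSL (chr6:41921517-41921542, plus strand): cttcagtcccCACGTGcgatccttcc
RRP9 (chr3:51941894-51941919, minus strand): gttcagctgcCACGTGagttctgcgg
PES1 (chr22:30591882-30591907, minus strand): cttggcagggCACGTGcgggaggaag
DDX21 (chr10:68956606-68956631, plus strand): ccgggtgtccCACGTGgtccccggcg

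NOP56, the member with the clearest change, had no CACGTG in its window and no CACGCG on either strand, a variant E-box searched after the first counts were seen. The variant was found in 10 of the 31 genes (32.3%), in 32.1% of the 131 other ribosome biogenesis genes and in 23% of tested genes. The 250 bases before the start of NOP56 are printed because they belong to the single called member.
NOP56 (chr20:2652382-2652631, plus strand): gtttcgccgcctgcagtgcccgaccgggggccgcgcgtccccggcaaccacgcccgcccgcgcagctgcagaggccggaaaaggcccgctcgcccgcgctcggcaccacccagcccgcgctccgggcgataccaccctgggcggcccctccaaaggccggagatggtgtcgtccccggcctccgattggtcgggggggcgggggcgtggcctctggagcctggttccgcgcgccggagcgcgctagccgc
A match is only a description of the letters, and binding was not measured.

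Library totals lay between 9162281 and 13184553 counts, and single members had from 88 to 23222 counts per library. The 37 genes together took 0.694% to 0.740% of the counts in the inhibitor libraries and 0.610% to 0.680% in the DMSO libraries. DMSO 3 was the farthest from the other DMSO libraries, as its chi-square over degrees of freedom was 36.7 and 24.6 against DMSO 1 and DMSO 2, which had 9.88 between them. Over genes with a mean count of at least 50 and a known GC content, deviations from the DMSO mean tracked transcript GC content. The directions were opposite in DMSO 1 (Spearman rho 0.535) and DMSO 3 (-0.491). Deviations of a gene cancel out over the DMSO libraries, so opposite signs are partly built in. For DMSO 3, its difference from the mean of DMSO 1 and DMSO 2 ran against transcript GC content over the 37 genes (Spearman rho -0.618), a description over genes that share these 3 libraries. GC content is that of whole annotated transcripts here and below, as the positions of the short sequenced products were not available. Of the 12 members under 45% GC, 11 were higher in DMSO 3, and of the 12 members over 55% GC, 3 were. The fibrosarcoma label was checked against mesenchymal markers. VIM was at 5311 to 6454 CPM and SPARC at 1581 to 2177 CPM, while S100A4 was at 2.53 to 3.57 CPM and THY1 had at most 1 count in a library. The epithelial genes EPCAM and CDH1 and the leukocyte genes PTPRC and CD3E had at most 1 count in any library. CLDN4, another epithelial gene, had 7 to 20 counts per library and was 2.14-fold higher with the inhibitor without overlap, but it was not called (edgeR adjusted p = 0.115), and its part in the results was not tested.

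MYC itself was lower in every inhibitor library. It measured 110, 104 and 84.5 CPM in DMSO 1 to 3 and 44.9, 45.7 and 42.2 CPM in inhibitor 1 to 3, where CPM is the count scaled to a common library size by the TMM method of edgeR. The groups did not overlap, and the log2 fold change was -1.17 (95% interval -1.46 to -0.88, edgeR adjusted p = 0.000224), a level 0.444 times that of DMSO. The paralogue MYCN had no counts in any library and MYCL had 2 to 10 counts per library, below 1 CPM in all and too few to test. MAX, which encodes the partner of MYC on DNA, had a log2 fold change of 0.15 (95% interval -0.24 to 0.54).

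No ribosome biogenesis gene of the 37 was called lower beside it. NOP56 was the 1 member called higher, with 0 called lower, where a call is a p under 0.05 from the quasi-likelihood test of edgeR after Benjamini-Hochberg adjustment over all tested genes. This is 2.7% of the members, against 3.87% of all tested genes called, 1.95% higher and 1.92% lower. At an unadjusted p under 0.05, 5 members were higher and 2 were lower, or 18.9% of them against 19.5% of all genes, and DESeq2 and limma-voom also called 1 higher and 0 lower. The median log2 fold change of the members was 0.04, with a range from -0.37 to 0.54, and that of all tested genes was -0.004. A log2 fold change above 0 was found in 22 members (59.5%, against 49.4% of all tested genes) and below 0 in 15. The count above 0 ranged from 20 to 25 over the alternative fits.

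The median SE of a member's log2 fold change was 0.136, and 30 of the 37 intervals of 95% held 0. The lowest end of any of them was -0.64, for BYSL, while the upper end of the MYC interval was -0.88. The intervals of all 37 members lay above the whole interval of MYC, which is a description of separate intervals and no test of the list. The same count was not made over all tested genes. Most tested genes changed little, as the log2 fold change was within 0.5 of 0 in 89.2% of them and in 97.3% of the members. Library scaling sets the total to a common level, so a loss of RNA per cell shared by all transcripts and an unchanged content cannot be told apart. MYC protein and ribosome production were not measured.

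**Figure D1:**
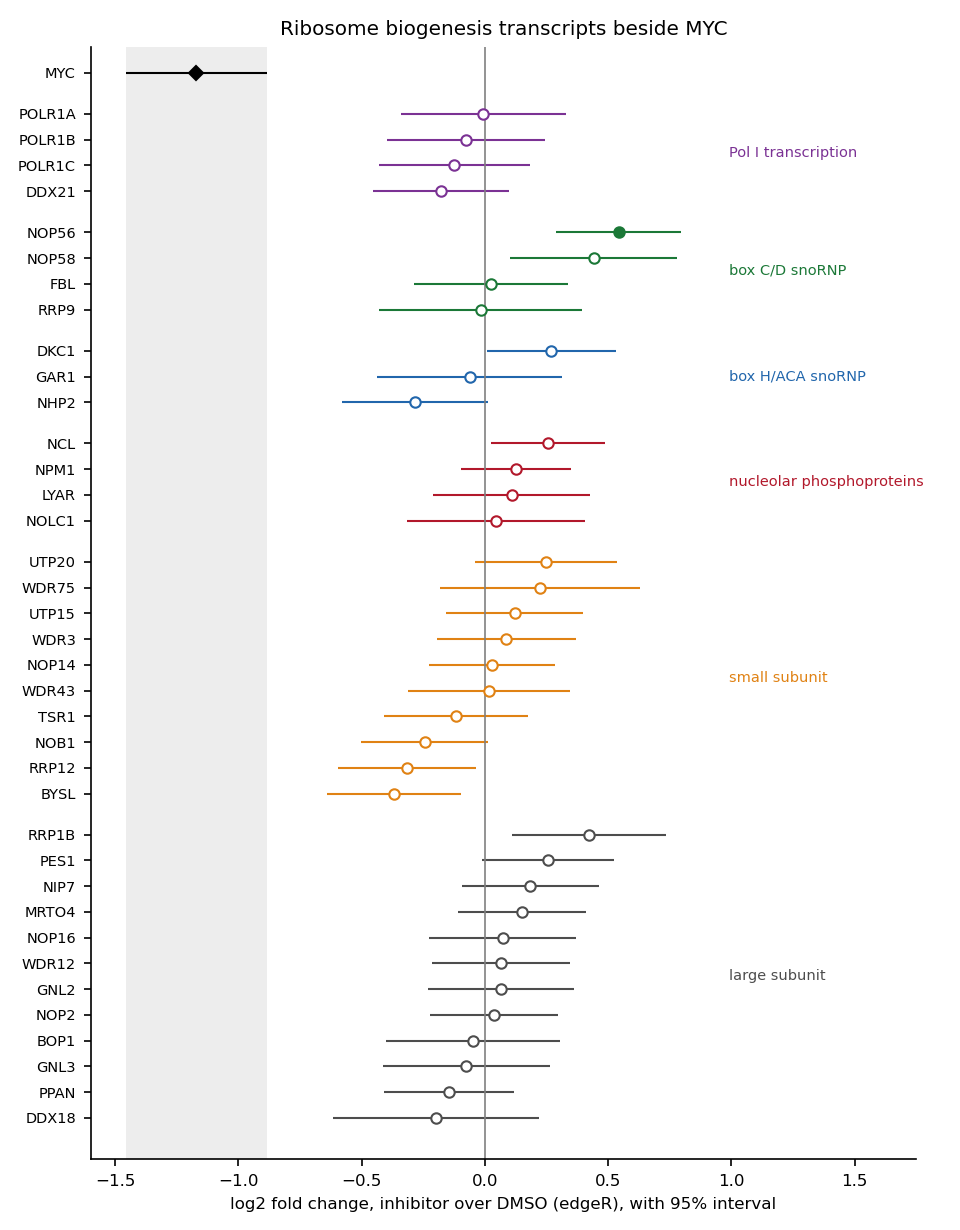
Log2 fold change, inhibitor over DMSO, of MYC and the 37 ribosome biogenesis genes by role, with 95% intervals from edgeR and 3 libraries per group. The grey band is the MYC interval, -1.46 to -0.88, the filled circle is the called member NOP56, and all open circles are members that were not called.

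Among the 37 members, the highest log2 fold changes were those of NOP56, which passed, and NOP58, which did not. Both belong to the box C/D particle, whose core is these paralogous scaffold proteins with the methyltransferase FBL (fibrillarin) and the small RNA-binding protein SNU13. NOP56 measured 156, 151 and 175 CPM in DMSO 1 to 3 and 238, 247 and 216 CPM in inhibitor 1 to 3. The lowest inhibitor library was thus above the highest DMSO library. It rose 1.46-fold, a log2 fold change of 0.54 (SE 0.118, 95% interval 0.29 to 0.80, edgeR adjusted p = 0.0209). That call was lost without inhibitor 1, 2 or 3 (adjusted p = 0.137, 0.157 and 0.0643) and without DMSO 2 (adjusted p = 0.116), with a log2 fold change of 0.50 to 0.60 in each case.

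NOP58 was at 109, 141 and 177.5 CPM in the DMSO libraries and 205, 199 and 176 CPM in the inhibitor libraries. DMSO 3 reached the level of inhibitor 3, so the groups touched. The log2 fold change was 0.44 (SE 0.158, edgeR adjusted p = 0.137), and it was 0.61 (adjusted p = 0.000155) without DMSO 3. The partners stayed near 0. FBL went from 173 ± 35.6 to 176 ± 8.67 CPM (mean ± SD, n = 3 per group), with an interval of -0.29 to 0.34 for the log2 fold change. SNU13, chosen after its values were seen to complete the particle, was at -0.02 (95% interval -0.33 to 0.29). RRP9, the protein specific to the U3 particle that guides cleavage of the precursor, had 21.7 CPM in DMSO 3 against 37.1 and 40.1 CPM in DMSO 1 and 2, a spread that surrounded the inhibitor values of 29.4 to 36.0 CPM.

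The box H/ACA particle showed different values for its proteins. DKC1 (dyskerin), the pseudouridine synthase, was at 47.8, 50.2 and 45.2 CPM with DMSO and at 61.5, 55.9 and 55.4 CPM with the inhibitor. The groups did not overlap, yet the log2 fold change of 0.27 (95% interval 0.01 to 0.53) did not pass (edgeR adjusted p = 0.241). NHP2, an RNA-binding core protein, was at 46.3, 51.8 and 38.4 CPM with DMSO and at 39.8, 36.3 and 36.4 CPM with the inhibitor. DMSO 3 lay below inhibitor 1, and the log2 fold change was -0.28 (SE 0.139, adjusted p = 0.278), or -0.40 (adjusted p = 0.0106) without DMSO 3. GAR1, which helps load and release the substrate, had 88 to 191 counts per library, and its inhibitor values of 12.0 to 13.2 CPM lay inside the DMSO range of 9.90 to 14.8 CPM.

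The RNA polymerase I genes were all slightly below 0, between -0.18 and -0.01, and none passed. POLR1A and POLR1B encode the largest subunits of the enzyme, and POLR1C a subunit shared with RNA polymerase III. POLR1A was at 25.8 to 39.6 CPM in the inhibitor libraries, around the DMSO range of 32.2 to 35.3 CPM. POLR1B was at 82.8 to 86.1 CPM in the inhibitor libraries, between DMSO 1 and 2 (77.6 and 77.4 CPM) and DMSO 3 (112 CPM). DDX21, a nucleolar helicase that couples polymerase I transcription to processing, had 215, 272 and 282 CPM with DMSO and 224, 214 and 242 CPM with the inhibitor, and the groups overlapped (log2 fold change -0.18, edgeR adjusted p = 0.483).

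Among the nucleolar phosphoproteins all 4 log2 fold changes were above 0 and none passed. NCL (nucleolin), which binds the nascent precursor, was at 600, 634 and 618 CPM with DMSO and at 753, 775 and 684 CPM with the inhibitor. The groups did not overlap and the log2 fold change was 0.26 (SE 0.107, edgeR adjusted p = 0.204). NPM1 (nucleophosmin), a nucleolar chaperone, was at 1612, 1707 and 1849 CPM with DMSO and 1895, 1944 and 1800 CPM with the inhibitor. Inhibitor 3 lay below DMSO 3, and the log2 fold change was 0.13 (95% interval -0.10 to 0.35). NPM1 has many processed pseudogenes, so its counts are uncertain where reads could be shared.

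NOLC1 and LYAR show how DMSO 3 widened the control range. NOLC1, a scaffold between nucleolus and Cajal bodies, was at 391, 344 and 220 CPM in DMSO 1 to 3 and at 324 to 331 CPM in the inhibitor libraries. LYAR, a nucleolar zinc finger protein gene, was at 480, 461 and 689 CPM in DMSO 1 to 3 and at 550 to 637 CPM in the inhibitor libraries. DMSO 3 was the lowest of all libraries for the first gene and the highest for the second. Without it, the log2 fold change of NOLC1 was -0.18 (adjusted p = 0.192) in place of 0.04, and that of LYAR was 0.30 (adjusted p = 0.0252) in place of 0.11.

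Of the 10 small-subunit factors, 6 had a log2 fold change above 0 and 4 below, and none passed. The lowest were BYSL, RRP12 and NOB1. BYSL (bystin), a component of small-subunit precursors, was at 39.3, 46.3 and 41.2 CPM with DMSO and at 32.5, 33.5 and 32.3 CPM with the inhibitor. Every inhibitor value was below every DMSO value, with a log2 fold change of -0.37 (95% interval -0.64 to -0.10, edgeR adjusted p = 0.122). RRP12, known for its part in subunit export, was at 137, 106 and 107 CPM with DMSO and at 94.5, 91.8 and 95.4 CPM with the inhibitor, again without overlap (log2 fold change -0.32, adjusted p = 0.199). NOB1, the endonuclease that makes the mature end of the small-subunit RNA, was at 86.5 to 87.1 CPM with DMSO and at 77.1, 66.4 and 76.4 CPM with the inhibitor (log2 fold change -0.24, adjusted p = 0.278). These 3 were the only members whose inhibitor values all lay below their DMSO values.

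UTP20 encodes a large scaffold protein of the small-subunit processome, the particle that folds and cuts the precursor. It was at 17.4 to 19.3 CPM with DMSO and at 20.9 to 22.6 CPM with the inhibitor, without overlap (log2 fold change 0.25, 95% interval -0.04 to 0.54). WDR75 was at 138, 131 and 240 CPM in DMSO 1 to 3 and at 191, 207 and 195 CPM in inhibitor 1 to 3. DMSO 3 again lay beyond all other libraries, and the log2 fold change was 0.22 (adjusted p = 0.568) with it and 0.54 (adjusted p = 0.000216) without it. UTP15, WDR3, NOP14 and WDR43 had log2 fold changes between 0.02 and 0.12 with overlapping groups, and TSR1, a late GTPase-like factor, was at -0.12. NOP14 shares its locus with an antisense gene, NOP14-AS1, and whether counting used strand is not stated, so its value is uncertain.

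Of the 12 large-subunit factors, 8 had a log2 fold change above 0 and 4 below, and none passed. RRP1B, a nucleolar protein of early large-subunit processing, was at 77.4, 95.2 and 116 CPM with DMSO and at 132, 131 and 122 CPM with the inhibitor. The groups did not overlap, with a log2 fold change of 0.42 (95% interval 0.11 to 0.73, edgeR adjusted p = 0.122), and 0.56 (adjusted p = 0.000317) without DMSO 3. PES1, BOP1 and WDR12 encode the PeBoW complex, needed to process the large-subunit RNA. Their log2 fold changes were 0.26, -0.05 and 0.07, and the groups overlapped for each.

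NIP7, a pre-60S factor, had 176, 180 and 219 CPM with DMSO and 241, 214 and 197 CPM with the inhibitor, with overlap (log2 fold change 0.18, adjusted p = 0.474). DDX18, a helicase of the large subunit, was at 164 and 176 CPM in DMSO 1 and 2 and at 311 CPM in DMSO 3, while the inhibitor libraries held 184 to 195 CPM. Its log2 fold change turned from -0.20 to 0.14 without DMSO 3, and it was called in neither case. The GTPases GNL2 and GNL3 (nucleostemin) were at 0.06 and -0.08, the methyltransferase NOP2 at 0.04, and MRTO4 and NOP16 at 0.15 and 0.07. PPAN was at -0.15, a value that reads of the PPAN-P2RY11 read-through transcript could enter.

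**Figure D2:**
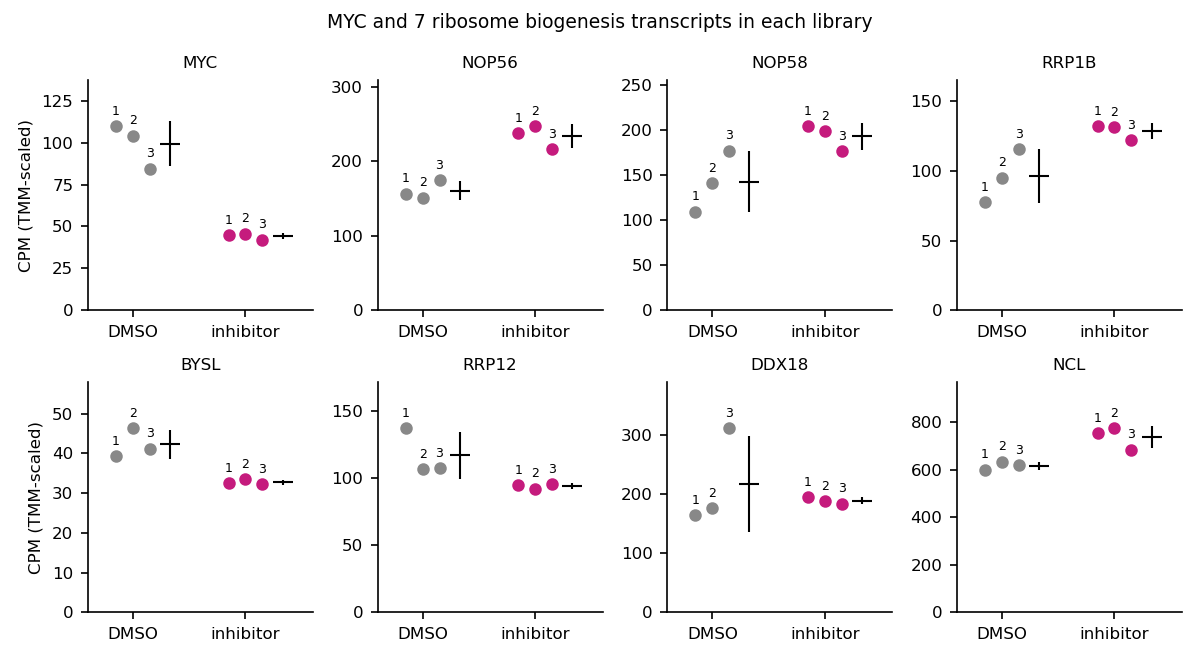
TMM-scaled CPM of MYC and 7 members in each library, numbered 1 to 3 within its group, with mean and SD beside the points. MYC, NOP56, RRP1B, BYSL, RRP12 and NCL have groups that do not overlap, while DMSO 3 alone lies far above the rest for DDX18.

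In all, 8 of the 37 members (21.6%) had groups that did not overlap, 5 with higher and 3 with lower inhibitor values. Of all tested genes 25.5% did not overlap, 13.7% higher and 11.8% lower, so the members' share was no larger than the background. The 5 were NOP56, DKC1, NCL, UTP20 and RRP1B. Replicates were tighter in the inhibitor group, for the members and for all tested genes. The median SD of log2 CPM was 0.078 for the members and 0.126 for all genes there, and 0.206 and 0.213 among the DMSO libraries.

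**Figure D3:**
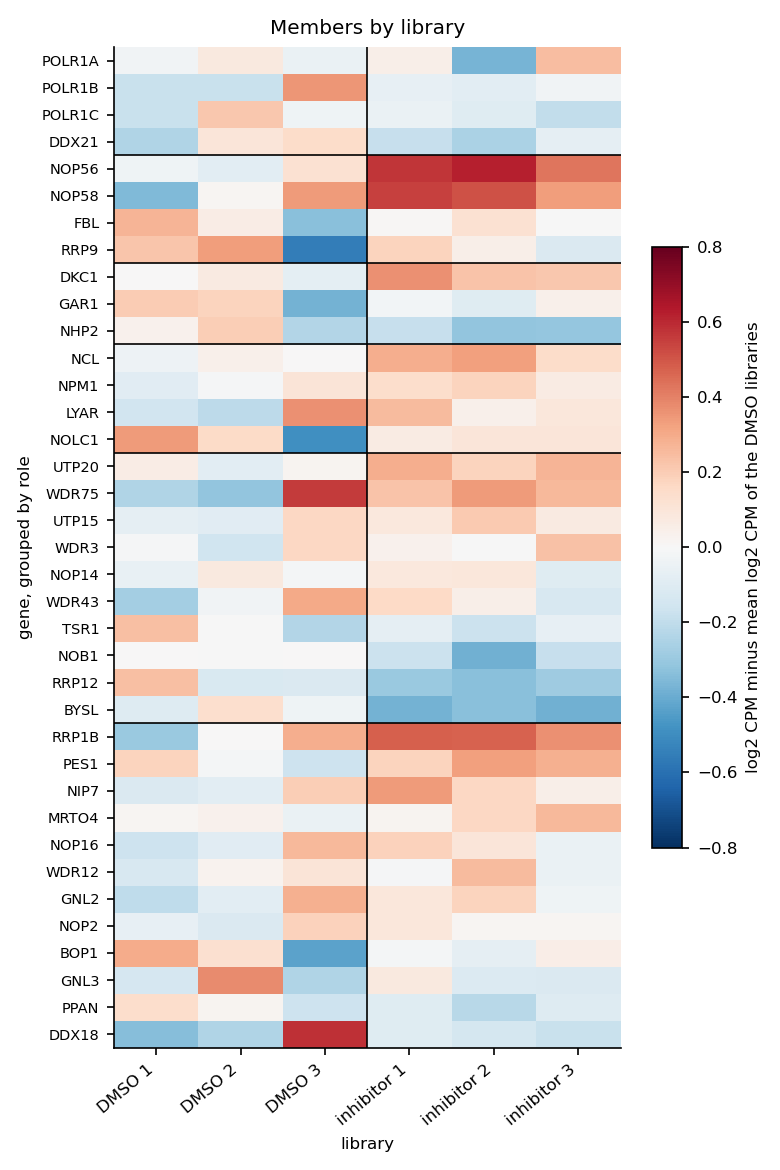
Log2 CPM of each member in each library minus its mean log2 CPM over the DMSO libraries, with genes grouped by role and black lines between roles. NOP56, NOP58 and RRP1B are red in all 3 inhibitor libraries and BYSL and RRP12 are blue, while the DMSO 3 column holds deep blue cells (RRP9, NOLC1) and deep red cells (WDR75, DDX18).

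Read library by library, the members did not shift as a block. Their median deviation from the DMSO mean was 0.08, 0.05 and 0.02 on the log2 scale in inhibitor 1 to 3, and -0.06, 0.01 and 0.00 in DMSO 1 to 3. MYC deviated by -1.14, -1.11 and -1.23 in the same inhibitor libraries. Of the 37 members, 24, 22 and 19 were above their DMSO mean in inhibitor 1 to 3. The same count was 14, 19 and 20 in DMSO 1 to 3, and it was not made over all tested genes. The median deviation of all tested genes was 0.01, 0.014 and 0.009 in inhibitor 1 to 3.

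The log2 fold changes of members with and without a CACGTG covered overlapping ranges. Those of the 14 with it ranged from -0.37 to 0.26 with a median of 0.03, and 9 of the 14 were above 0. The 17 members whose windows lack it ranged from -0.28 to 0.54 with a median of 0.07, and 10 were above 0. FBL, with an E-box 6 bases after its start, was at 0.02, PES1, with its E-box 13 bases after, at 0.26, and BYSL, with its E-box 28 bases after, at -0.37. No test was made of this description.

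The rest of the pathway was read from a list of 150 tested genes with the same roles. Of these 3 rose and 3 fell (4% called, against the 3.87% of all genes), and the median log2 fold change was 0.005. NOP10, the smallest protein of the box H/ACA core, rose 1.64-fold, from 237, 286 and 360 CPM with DMSO to 489, 476 and 479 CPM with the inhibitor (log2 fold change 0.71, SE 0.141, edgeR adjusted p = 0.0121). Neither NOP10 nor its partner DKC1 overlapped between the groups, while NHP2 and GAR1 did, and the differences between these genes were not tested. RPP14, a subunit of the ribonucleases P and MRP, rose 1.96-fold, from 7.89, 10.3 and 7.99 to 17.1, 19.3 and 15.1 CPM (adjusted p = 0.00589). UTP3, a component of the small-subunit processome, rose 1.4-fold, from 110, 109.7 and 125 to 164, 160 and 158 CPM (adjusted p = 0.0356).

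The 3 that fell include a pair of polymerase I factors. POLR1D, the subunit that pairs with POLR1C, went from 48.9, 51.6 and 48.7 CPM to 30.5, 33.5 and 37.1 CPM, or 0.677 times (log2 fold change -0.56, SE 0.128, edgeR adjusted p = 0.026). TAF1D, part of the factor that places polymerase I on the ribosomal DNA promoter, went from 356, 330 and 362 CPM to 268, 258 and 260 CPM, or 0.749 times (adjusted p = 0.0496). RIOK1, a kinase of late small-subunit maturation, went from 76.4, 85.0 and 71.5 CPM to 58.9, 44.1 and 51.03 CPM, or 0.661 times (adjusted p = 0.028). No call among the 6 held in every fit that left out 1 library. Without inhibitor 1, 2 and 3 and without DMSO 2, the number called was 1, 0, 1 and 1 of 150, where 1.1%, 0.87%, 1.32% and 1.63% of all genes were called, and RPP14 was the gene that remained in the fits with 1. Without DMSO 3, 35 of 150 passed (23.3%), against 21.9% of all genes. With the replicate number as a block UTP3, POLR1D and TAF1D were not called (adjusted p = 0.0731, 0.0501 and 0.103), and with library totals in place of TMM TAF1D was not (adjusted p = 0.075).

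**Figure D4:**
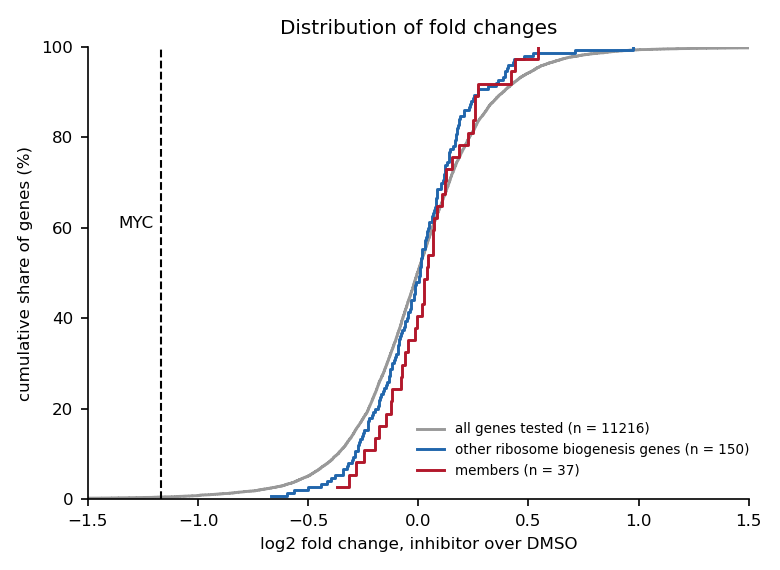
Cumulative share of genes by log2 fold change for the 37 members, 150 other ribosome biogenesis genes and 11216 tested genes. The 3 curves cross 50% close to 0, at medians of 0.04, 0.005 and -0.004, and the dashed line marks MYC at -1.17, left of every member and of every gene in the pathway list.

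A further list of 17 MYC targets outside ribosome production, among them enzyme genes of nucleotide and polyamine synthesis, was read in the same way. None passed by edgeR. At an unadjusted p under 0.05, 4 were higher and 1 was lower, 5 of 17 against 19.5% of all genes. The groups did not overlap for 5 of the 17, all 5 higher, against 13.7% higher and 11.8% lower over all genes. The median log2 fold change was 0.14 with a lowest value of -0.32.

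The number of members called rose when DMSO 3 was left out. Without it 8 of 37 passed (21.6%), 5 higher and 3 lower, against 21.9% of 11386 genes, 10.8% higher and 11.1% lower. Members higher were NOP56, NOP58, RRP1B, WDR75 and LYAR, with log2 fold changes of 0.30 to 0.61, and members lower were BYSL, RRP12 and NHP2, at -0.39 to -0.40. With library quality weights in limma-voom, 8 members passed as well (21.6%), 6 higher and 2 lower, against 23.2% of all genes. Neither share exceeded the background. MYC was at -1.29 without DMSO 3, and the median of the members was 0.11. With the GC trend of each library removed and all 6 libraries kept, NOP56 was again the single member called (log2 fold change 0.53, adjusted p = 0.0107). The part of base composition in the calls made without DMSO 3 was not tested.

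**Figure D5:**
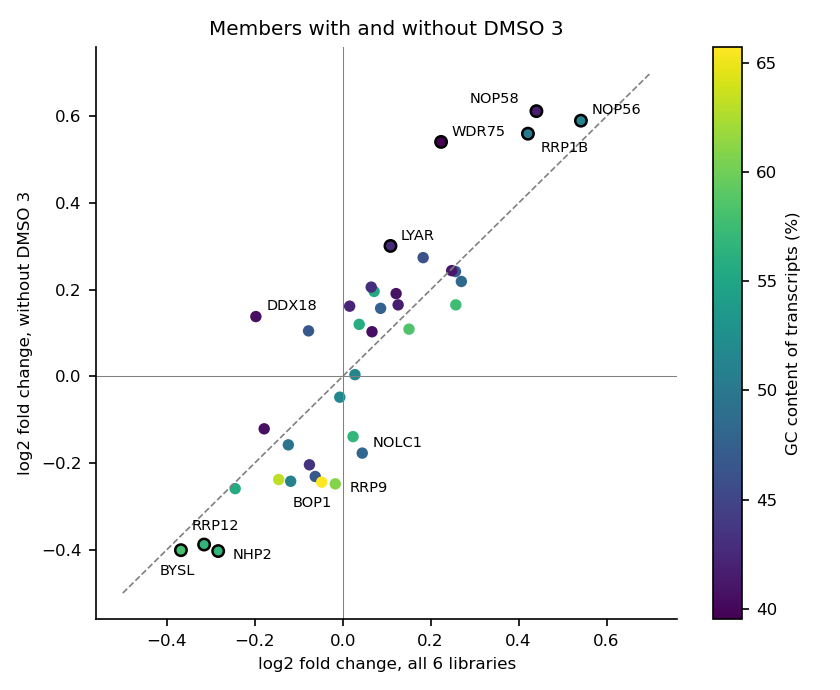
Log2 fold change of the 37 members with all 6 libraries (x axis) and without DMSO 3 (y axis), coloured by the GC content of their transcripts, with a black rim on members called without DMSO 3 and the dashed line marking equal values. Some points of low GC such as WDR75 and DDX18 lie above the line and some of high GC such as BOP1 and RRP9 below it. Exceptions are NOP16 (55.3% GC) and NOP2 (55.7% GC) above the line, and GNL3 (43.3% GC) below it.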

How the data were processed

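The 6 libraries were made with the Ion AmpliSeq Transcriptome panel and sequenced by Ion Torrent. The panel amplifies a short product from each transcript, so counts do not scale with transcript length. Product efficiency differs between genes, so CPM was compared between libraries for the same gene. Across genes, CPM served only to choose which member of a role to show and to read the cell markers, where it is a rough guide. No difference in level between members is reported. The deposited values are raw counts per gene symbol, not normalized. The build hg19 and the tools HTSeq and DESeq2 1.20.0 are named, without roles, per the submitters' processing notes, and the sources used here give no aligner.

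Genes kept by filterByExpr (minimum count 10, minimum total 15) were scaled by TMM and tested across all genes with the quasi-likelihood test of edgeR 4.0.16 in R 4.3.3, adjusting p by Benjamini-Hochberg (threshold 0.05). SEs were derived from the F statistic and intervals of 95% from those SEs. No replicate pair agreed within counting noise (chi-square per degree of freedom 5.17 to 36.7). Reads without molecular identifiers are not independent molecules. Fits were tested on simulated data. Alternatives were other scalings and filters, DESeq2 1.42.0, limma-voom (limma 3.58.1) with and without quality weights, a replicate block, removal of each library's GC trend (GENCODE transcripts, 99.2% of tested genes matched) and leaving out each library.

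The members, lists, tests and alternatives were chosen with earlier results of these data known. By a set rule, values per library are given for members past the threshold, the 4 highest and 4 lowest log2 fold changes, the member with the highest CPM of each role, and MYC. Pathway genes are named where called. Any member may be named, and the library values of RRP9, POLR1B, NOLC1, LYAR and other members outside this rule were chosen after they were seen.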

Additional observations from a re-analysis of the deposited data

How the results depend on the processing

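MYC stayed lower and called in all 15 alternatives, at a log2 fold change of -1.29 to -1.10 (largest adjusted p = 0.0071), and the median of the members ranged from 0.014 to 0.109. Counts that left out 1 library ranged from 0 to 5 members higher and 0 to 3 lower, 0 to 21 other ribosome biogenesis genes higher and 0 to 14 lower, and 38 to 1227 of all tested genes higher and 61 to 1269 lower. The highest of each came without DMSO 3 and the lowest total without inhibitor 2. With library quality weights, 6 members were higher and 2 lower, 20 other ribosome biogenesis genes were higher and 12 lower, and 1387 of all tested genes were higher and 1219 lower. Without a filter on low counts 2 members were higher (NOP56 and NOP58), 5 other ribosome biogenesis genes were lower, and 395 of all tested genes were higher and 436 lower. Library totals alone gave 5 other ribosome biogenesis genes and 335 of all tested genes higher, with the median of all genes at 0.056. With the GC trend removed, 366 of all tested genes were higher and 359 lower. The cause of these differences was not tested.

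With a replicate block 1 member was higher and 0 lower, 2 other ribosome biogenesis genes were higher and 2 lower, and 160 of all tested genes were higher and 168 lower, and NOP56 had an adjusted p of 0.0466. Same-numbered libraries share only a number. Their deviations had correlations of -0.0787, -0.0448 and -0.119 for pairs 1 to 3, and no library correlated best with its own number.

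Members near 0 changed sign without being called. With library totals POLR1A, RRP9 and BOP1 were at 0.053, 0.041 and 0.011. RRP9 was at 0.0203 in limma-voom and 0.023 with the replicate block, and with the GC trend removed RRP9, BOP1 and WDR43 were at 0.049, 0.03 and -0.018. With quality weights POLR1B, FBL, NOLC1, NOP14 and DDX18 were at 0.079, -0.021, -0.051, -0.011 and 0.062. Leaving out 1 library in turn gave ranges across 0 for POLR1A (-0.146 to 0.147), POLR1B (-0.174 to 0.105), FBL (-0.139 to 0.16), RRP9 (-0.248 to 0.146), GAR1 (-0.231 to 0.0206), NOLC1 (-0.177 to 0.211), NOP14 (-0.00896 to 0.0867) and WDR43 (-0.117 to 0.162). The same held for TSR1 (-0.242 to 0.00277), NOP2 (-0.0214 to 0.12), NOP16 (-0.0174 to 0.196), BOP1 (-0.244 to 0.0965), WDR12 (-0.0351 to 0.124), GNL3 (-0.204 to 0.138), GNL2 (-0.0409 to 0.206) and DDX18 (-0.369 to 0.138).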
